A study of Mus musculus with 114 samples.

Results

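The genes described here encode the glutathione and antioxidant enzymes of mouse adipocytes. They were chosen by symbol alone as the cytosolic glutathione transferases (Gsta, Gstm, Gsto, Gstp, Gstt and Gstz), the kappa transferase Gstk1, the microsomal transferases (Mgst), the glutathione peroxidases (Gpx), the peroxiredoxins (Prdx), the superoxide dismutases (Sod), the thioredoxin reductases (Txnrd) and catalase (Cat), which gave 48 of the 29132 genes measured. RNA-seq was run on adipocytes, the fraction that floats after collagenase digestion of perigonadal white adipose tissue, from male C57BL/6J mice. All mice started at 6 weeks of age on either chow (CD) or a high fat diet (HFD) and were fasted before tissue collection after 8, 20 or 34 weeks, at 14, 26 or 40 weeks of age. Every group held 6 mice except the CD group at 34 weeks, which held 8.

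These enzymes form successive layers of one chemical defence. Superoxide dismutases turn superoxide into hydrogen peroxide, in the cytosol (Sod1), in mitochondria (Sod2) and outside the cell (Sod3), and catalase, glutathione peroxidases and peroxiredoxins then reduce the peroxide. Glutathione peroxidases draw on the tripeptide glutathione, most peroxiredoxins draw on thioredoxin, and thioredoxin reductases use NADPH to return thioredoxin to its reduced form. Glutathione transferases join glutathione to electrophiles such as the reactive aldehydes released from oxidized lipid, a route of known importance in fat cells. Many of these genes are textbook targets of the transcription factor Nrf2 (gene Nfe2l2), which binds antioxidant response elements together with small Maf proteins.

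The authors' values are CPM, the reads of a gene scaled to a total of 1000000 on all genes, and the mice had between 9275711 and 15480388 reads on genes. At 8 weeks every HFD mouse was sequenced more deeply than every CD mouse, so diet and depth cannot be told apart there. All 12 adipocyte markers, among them Adipoq, Plin1 and Lep, were measured and tested, and their summed level was 18513 to 52639 CPM over the 38 mice. Of 18 macrophage markers in the table, 17 were tested and none was at 0 in all mice of a group. Their summed level was 457 to 2149 CPM in CD and 1407 to 4586 in HFD mice at 8 weeks, 1074 to 4561 and 6388 to 13313 at 20 weeks, and 1476 to 16956 and 7493 to 22463 at 34 weeks. CD mouse 5 at 34 weeks had the highest macrophage level of its group, within the HFD range. In such bulk samples fewer cells of a type and less RNA per cell cannot be told apart.

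Comparisons between diets were made with limma on log2(CPM + 1), with Benjamini-Hochberg adjustment over the 10343 genes whose mean log2(CPM + 1) over all mice was above 2.0. A gene is called higher or lower where its adjusted p was under 0.05, and all fold changes below are HFD over CD on the log2(CPM + 1) scale. The fit takes 1 spread per gene over all 6 groups, so its standard errors do not show the spread of each time. With each time fitted alone 5718, 6718 and 2457 of all genes were called at 8, 20 and 34 weeks, beside 4648, 5894 and 4468 here. Of the values of single named genes, 51 then kept direction and call, 2 gained a call and 1 lost it. The filter was passed by 37 of the 48 genes: 15 of 20 cytosolic transferases, Gstk1, 3 of 3 Mgst, 5 of 9 Gpx, 6 of 8 Prdx, 3 of 3 Sod, 3 of 3 Txnrd and Cat. Their mean log2(CPM + 1) was above 2.0 in all 6 groups, except for Gstm6, which was above it in 5.

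Per kilobase of exon, the median level over all mice was highest for Gpx1, the main cytosolic peroxidase, at 863 CPM per kilobase. Cat followed at 439, Mgst1 at 412, Gpx4 at 328, Gpx3 at 316 and Prdx1 at 228 CPM per kilobase. The leading cytosolic transferases on this scale were Gstm1 at 206 and Gstz1 at 173, and the lowest tested gene was Gstt3 at 1.57 CPM per kilobase. Of the 11 genes that were not tested Gsto2 had reads in every mouse, with group medians of 1.47 to 3.10 CPM. The highest values of the 11 were 7.01 CPM for Gpx5, 4.66 for Gsto2, 2.21 for Gstt4, 0.86 for Prdx6b, 0.379 for Gpx2, 0.171 for Gsta2, 0.163 for Gpx2-ps1, 0.149 for Gstm3, 0.086 for Gpx6 and 0.07 for Gsta1. Prdx6-ps2 had no read in any mouse. Gpx5, a peroxidase of the epididymis, was highest in HFD mouse 4 at 34 weeks, where the summed level of 18 epididymis markers was 19.9 CPM, and second in CD mouse 6 at 34 weeks, at 4.06 CPM beside 8.97 CPM for those markers. The link did not hold throughout, since an HFD mouse at 8 weeks had 15.2 CPM of those markers and no Gpx5 read.

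After 8 weeks of HFD the enzymes moved in both directions, and after 20 and 34 weeks most of those called were lower. At 8 weeks 10 genes were higher and 11 lower of the 37 tested, where 44.9% of all genes tested were called, 29.8% higher and 15.1% lower. At 20 weeks 5 were higher and 16 lower (57.0% of all genes called), and at 34 weeks 3 were higher and 21 lower (43.2%). Among all genes tested more were called higher than lower, with 38.3% higher and 18.7% lower at 20 weeks and 27.5% higher and 15.7% lower at 34 weeks. The median fold change of the 37 enzymes was -0.04, -0.36 and -0.53 at the 3 times, beside 0.11, 0.14 and 0.07 for all genes tested. With TMM factors the median of all genes was 0.01, -0.07 and -0.01, so that CPM alone placed it 0.11 to 0.14 above 0 at the first 2 times, and the enzyme calls became 7 higher and 11 lower, 3 higher and 21 lower, and 3 higher and 24 lower. Of all 10343 genes TMM factors called 2339 higher and 2212 lower at 8 weeks, 2718 and 3356 at 20 weeks, and 2320 and 2149 at 34 weeks. On that scale more genes were lower than higher at 20 weeks, unlike with CPM. In the reported fit, leaving out CD mouse 5 at 34 weeks gave 3 higher and 22 lower enzymes at 34 weeks.

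**Figure D1:**
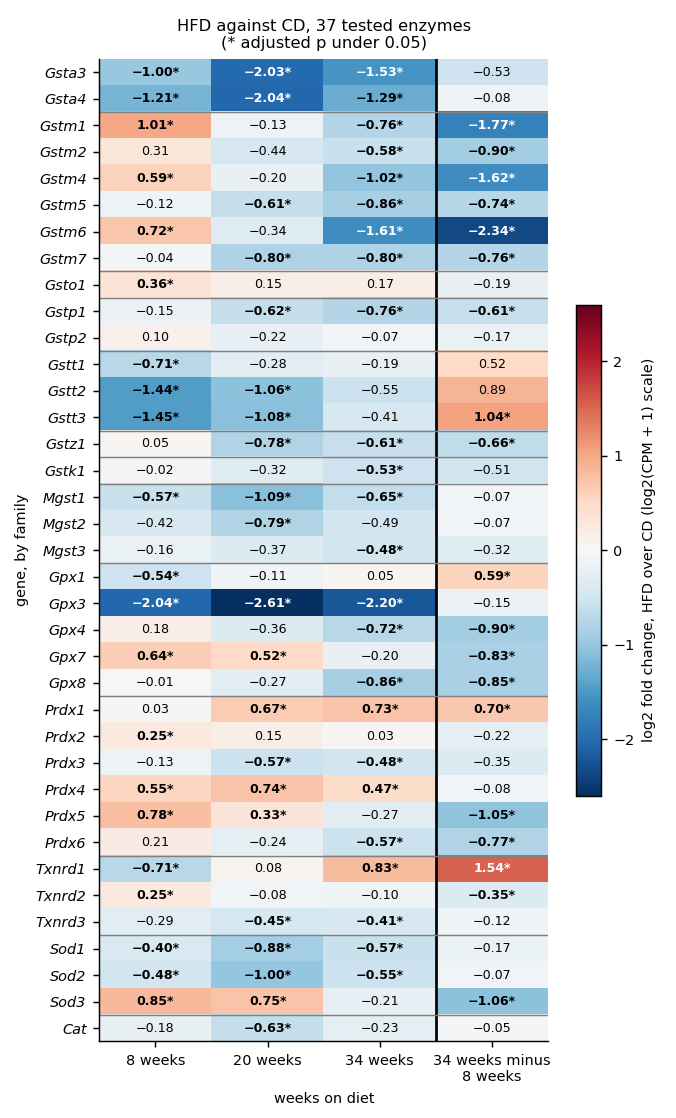
Heat map of the log2 fold change of HFD over CD (log2(CPM + 1) scale) for the 37 tested enzyme genes, in rows by family, at 8, 20 and 34 weeks, with the difference between the 34 and 8 week fold changes in the last column. Asterisks mark an adjusted p under 0.05. Gpx3 reaches -2.61 at 20 weeks, Gstm1, Gstm4 and Gstm6 turn from red to blue between 8 and 34 weeks, and Txnrd1 turns from blue to red.

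In 11 of the 37 genes the HFD and CD mice did not overlap at 8 weeks (22.8% of all genes tested), 7 of them higher (15.7%) and 4 lower (7.14%). At 20 weeks it was 17 genes (37.2%), 4 higher (26.1%) and 13 lower (11.1%). At 34 weeks only Gpx3 among these genes was free of overlap (2.46% of all genes tested, with 0.986% lower). The 6 genes called lower at every time were Gpx3, Gsta3, Gsta4, Mgst1, Sod1 and Sod2, a pattern found in 3.38% of all genes tested. Prdx4, the peroxiredoxin of the endoplasmic reticulum, was the one enzyme called higher at every time (12.2% of all genes tested). Gstm1, Gstm4 and Gstm6 were higher at 8 weeks and lower at 34 weeks (2.3%), Txnrd1 was lower at 8 and higher at 34 weeks (1.82%), and Gstp2 was called at no time.

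**Figure D2:**
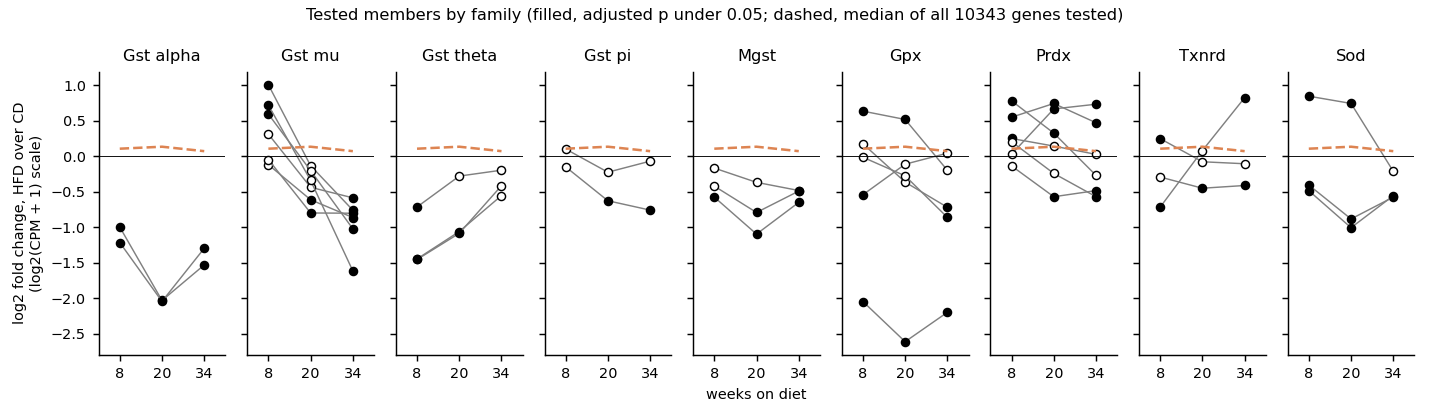
Log2 fold change of HFD over CD (log2(CPM + 1) scale) against weeks on diet for each family or transferase class with more than 1 tested gene. Each line is a gene, filled points have an adjusted p under 0.05, and the dashed line is the median of all 10343 genes tested. In fold change the alpha genes are lowest at 20 weeks, the mu genes fall and the theta genes rise toward 0 from 8 to 34 weeks, and the Prdx genes lie on both sides of 0.

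The families differed in these medians. The 2 alpha transferases had medians of -1.10, -2.04 and -1.41 at 8, 20 and 34 weeks, the 6 mu transferases 0.45, -0.39 and -0.83, and the 3 theta transferases -1.44, -1.06 and -0.41. The 3 Mgst genes had -0.42, -0.79 and -0.49, and the 5 Gpx genes -0.01, -0.27 and -0.72. The 6 Prdx genes had 0.23, 0.24 and -0.12, which were 0.12, 0.02 and -0.21 with TMM factors. Each of the other families had its own median at 20 weeks: -0.88 for Sod, -0.63 for Cat, -0.32 for Gstk1 and -0.08 for Txnrd. Summed over its 20 genes, the cytosolic transferase family took 1738, 2070.0 and 2258 CPM (lowest, median and highest mouse) at 20 weeks with CD and 1191, 1289 and 1383 with HFD, without overlap. Gstz1 alone held 833 to 1067 CPM of this sum with CD and 539.6 to 601 with HFD, a large part of it. Gsta3, Gsta4, Gstm2, Gstm5, Gstm7, Gstp1 and Gstt3 were also lower without overlap at 20 weeks. The other tested cytosolic transferases overlapped between the diets. At 8 and at 34 weeks these sums overlapped. The summed Gpx family was without overlap at 8 weeks alone, at 3105, 3506 and 4227 CPM with CD and 1570.1, 2000.4 and 2847 with HFD. The sums of Sod at 20 weeks (lowest CD mouse 1559.8, highest HFD mouse 1502.5 CPM) and of Txnrd at 8 weeks (302.4 and 281.8) were also apart.

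The 250 bases before each start site were searched in RefSeq promoters (GRCm38.p6, the build of the reads) for the core of the antioxidant response element, TGACNNNGC, on both strands. Of 41 member genes with a window, 7 held it (17.1%), beside 11.5% of 27025 genes with a window. Of the 33 tested members with a window 7 held it (21.2%), beside 14.3% of all tested genes with one. The 7 were Gsta3, Gstm5, Gstm7, Mgst1, Prdx1, Txnrd1 and Sod1. Windows of 4 of them are shown because these genes went in different directions under HFD: Gsta3 and Mgst1 lower at every time, Prdx1 higher at the later times, and Txnrd1 lower and then higher. Capitals mark the motif, which lies on the gene's own strand in Gsta3 and on the opposite strand in the other 3, and its first base in the printed direction is 121, 56, 133 and 92 bases before the start in the order shown. For Mgst1 the first of 2 start sites and for Txnrd1 the second of 3 is given, since the other windows held no match. All 4 genes lie on the plus strand.
Gsta3, chr1:21240335-21240584: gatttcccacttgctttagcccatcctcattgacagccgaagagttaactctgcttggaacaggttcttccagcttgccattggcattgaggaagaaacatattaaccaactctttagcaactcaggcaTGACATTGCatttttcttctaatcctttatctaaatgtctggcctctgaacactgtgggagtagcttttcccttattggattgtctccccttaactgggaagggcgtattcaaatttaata
Mgst1, chr6:138140277-138140526: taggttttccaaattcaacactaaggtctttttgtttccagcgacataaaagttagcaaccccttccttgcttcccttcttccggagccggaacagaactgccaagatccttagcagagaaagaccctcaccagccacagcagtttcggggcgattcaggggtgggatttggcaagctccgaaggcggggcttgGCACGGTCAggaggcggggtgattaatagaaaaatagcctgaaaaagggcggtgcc
Prdx1, chr4:116685349-116685598: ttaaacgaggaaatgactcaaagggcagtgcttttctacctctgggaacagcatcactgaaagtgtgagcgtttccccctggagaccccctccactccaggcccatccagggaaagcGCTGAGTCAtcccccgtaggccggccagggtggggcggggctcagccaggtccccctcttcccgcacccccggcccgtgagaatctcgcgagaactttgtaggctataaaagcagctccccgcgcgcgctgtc
Txnrd1, chr10:82858956-82859205: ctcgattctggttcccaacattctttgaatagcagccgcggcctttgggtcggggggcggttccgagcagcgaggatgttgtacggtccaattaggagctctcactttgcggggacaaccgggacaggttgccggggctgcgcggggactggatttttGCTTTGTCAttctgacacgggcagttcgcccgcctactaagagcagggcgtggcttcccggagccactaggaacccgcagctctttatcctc
A match says only that these letters are present, and no binding was measured.

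Among the glutathione peroxidases Gpx3 fell most, and Gpx1 and Gpx4 moved at opposite ends of the time course. Gpx3 (Entrez 14778, chromosome 11, 54902854 to 54910387) encodes the secreted plasma peroxidase, which adipose tissue makes in quantity. In CD mice Gpx3 was at 1437, 1585 and 2232 at 8 weeks, 839, 1287 and 2485 at 20 weeks, and 214, 474 and 940.1 at 34 weeks (lowest, median and highest CPM of each group, as in all such triplets below). In HFD mice Gpx3 was at 159, 504 and 931 at 8 weeks, 136, 191 and 530.5 at 20 weeks, and 76.2, 101 and 123 at 34 weeks. No HFD mouse reached the lowest CD mouse of its time. The log2 fold change was -2.04 (standard error 0.39, adjusted p = 0.000128) at 8 weeks, -2.61 (standard error 0.39, adjusted p = 1.53e-06) at 20 weeks and -2.20 (standard error 0.37, adjusted p = 4.96e-05) at 34 weeks, lower in 6 of 6 HFD mice each time. It remained called at each time with the mean of the macrophage markers as a covariate, at -1.37 (adjusted p = 0.00484), -1.53 (adjusted p = 0.0088) and -1.50 (adjusted p = 0.0065). Per kilobase, the median of Gpx3 in CD mice at 8 weeks (874 CPM per kilobase) was near that of Gpx1 (954), and in HFD mice at 34 weeks the same levels were 55.9 and 902.

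Gpx1 was at 1151, 1375 and 1519.6 at 8 weeks, 907, 1286 and 1545 at 20 weeks, and 976, 1224 and 1861 at 34 weeks in CD mice. The HFD mice held 704, 899 and 1308 at 8 weeks, 1040.4, 1145 and 1419 at 20 weeks, and 970.4, 1299 and 1949 at 34 weeks. At 8 weeks 5 of 6 HFD mice were below every CD mouse, and at the later times the diets mixed. Its fold change was -0.54 (standard error 0.16, adjusted p = 0.00771) at 8 weeks, and -0.11 and 0.05 later, neither called. Gpx4, which reduces lipid peroxides within membranes, was at 446, 493 and 685 at 8 weeks, 502, 572 and 764 at 20 weeks, and 432, 839 and 1103 at 34 weeks in CD and 562, 590.2 and 607 at 8 weeks, 400.5, 438 and 560.3 at 20 weeks, and 304, 507 and 746 at 34 weeks in HFD mice. The 34 week difference was -0.72 (standard error 0.17, adjusted p = 0.0012), and -0.40 (adjusted p = 0.111) once the macrophage covariate was added, while the 8 and 20 week differences of 0.18 and -0.36 were not called. A share of 34.7% of the 50-base windows of Gpx4 transcripts also occurs in the pseudogene Gpx4-ps2, so its count is less certain. Gpx7 and Gpx8, peroxidases of the endoplasmic reticulum, were at 8.48 to 29.5 and 6.00 to 25.5 CPM over all mice. Gpx7 was called higher at 8 and 20 weeks (0.64 and 0.52) and Gpx8 lower at 34 weeks (-0.86).

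**Figure D3:**
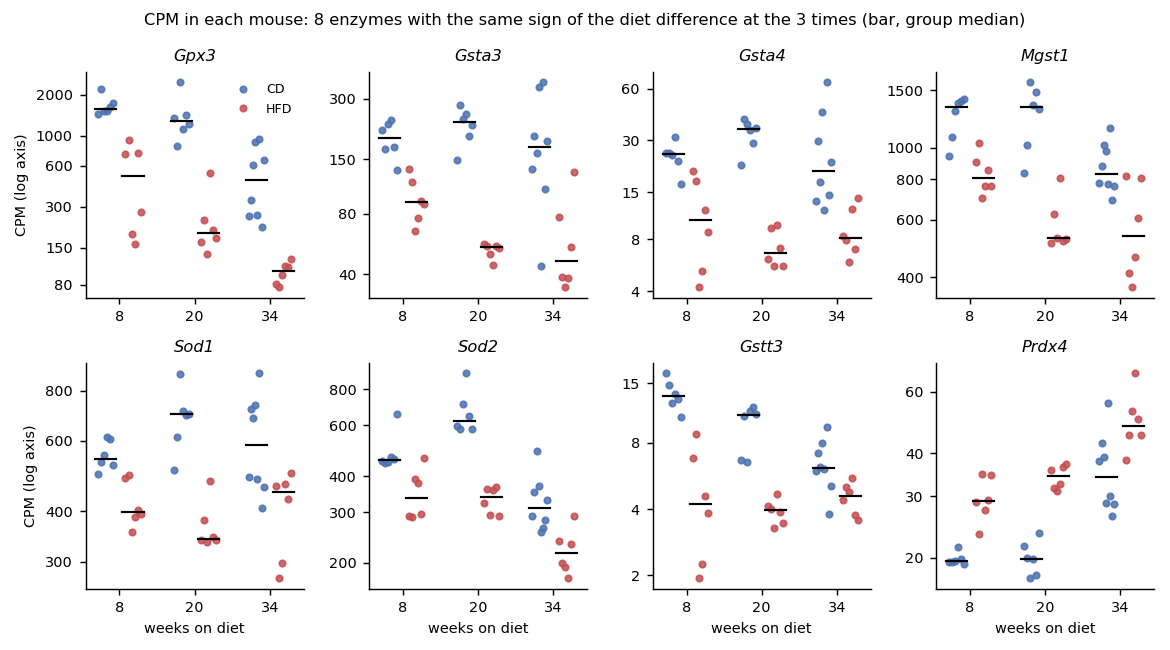
CPM of each mouse (log axis) against weeks on diet for 8 enzyme genes whose diet difference had the same sign at the 3 times, with CD in blue, HFD in red and bars at the group medians. Gpx3 is free of overlap at every time, and its highest HFD mouse at 34 weeks is at 123 CPM against 214 in the lowest CD mouse.

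The alpha transferases fell together. Gsta4, whose product conjugates 4-hydroxynonenal from oxidized lipid, was at 16.7, 25.0 and 31.6 at 8 weeks, 21.7, 34.9 and 39.9 at 20 weeks, and 11.9, 19.9 and 65.3 at 34 weeks in CD mice. In HFD mice Gsta4 held 4.199, 10.3 and 20.0 at 8 weeks, 5.60, 6.66 and 9.64 at 20 weeks, and 5.88, 8.09 and 13.9 at 34 weeks. The diets did not overlap at 20 weeks and overlapped at 8 and 34 weeks. Its fold change was -1.21 (standard error 0.32, adjusted p = 0.00299) at 8 weeks, -2.04 (standard error 0.32, adjusted p = 3.10e-06) at 20 weeks and -1.29 (standard error 0.30, adjusted p = 0.00106) at 34 weeks. Gsta3, with the motif 121 bases before its start, was at 132, 191 and 234 at 8 weeks, 148, 229 and 280.2 at 20 weeks, and 44.1, 172 and 363 at 34 weeks in CD and 66.0, 91.4 and 134 at 8 weeks, 44.4, 54.7 and 56.7 at 20 weeks, and 34.4, 46.8 and 129 at 34 weeks in HFD mice. All 6 HFD mice were below every CD mouse at 20 weeks. Gsta3 changed by -0.995 (standard error 0.33, adjusted p = 0.0133) at 8 weeks, -2.03 (standard error 0.33, adjusted p = 4.09e-06) at 20 weeks and -1.53 (standard error 0.30, adjusted p = 0.000274) at 34 weeks. Its standard deviation between mice in log2(CPM + 1) was 0.32 with CD and 0.13 with HFD at 20 weeks. At 34 weeks it was 0.96 and 0.73, a wider spread that the pooled standard errors do not show. With the macrophage covariate both genes stayed called at 20 weeks, Gsta3 at -0.91 (adjusted p = 0.0297) and Gsta4 at -1.07 (adjusted p = 0.0187). At 8 weeks they then reached -0.29 (adjusted p = 0.416) and -0.60 (adjusted p = 0.105), and at 34 weeks -0.80 (adjusted p = 0.0401) and -0.66 (adjusted p = 0.118).

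The theta transferases are neighbours on chromosome 10 (75774117 to 75837419, where all 4 coding genes are Gstt genes). The 3 tested ones were all called lower at 8 weeks and none was called at 34 weeks, while Gstt4 was not tested. Gstt3 was at 10.5, 13.1 and 16.7 at 8 weeks, 6.55, 10.7 and 11.6 at 20 weeks, and 3.81, 6.16 and 9.48 at 34 weeks in CD and 1.94, 4.21 and 8.79 at 8 weeks, 3.27, 3.95 and 4.68 at 20 weeks, and 3.59, 4.59 and 5.57 at 34 weeks in HFD mice. Its groups were apart at 8 and 20 weeks and overlapped at 34 weeks. The fold change was -1.45 (standard error 0.21, adjusted p = 4.18e-06) at 8 weeks, -1.08 (standard error 0.21, adjusted p = 4.76e-05) at 20 weeks and -0.41 (adjusted p = 0.0829) at 34 weeks. Gstt2 was at 27.7, 45.3 and 60.7 at 8 weeks, 24.0, 48.4 and 79.6 at 20 weeks, and 17.9, 26.1 and 40.1 at 34 weeks in CD and 10.2, 14.4 and 32.4 at 8 weeks, 15.8, 19.9 and 41.0 at 20 weeks, and 12.4, 17.0 and 22.7 at 34 weeks in HFD mice. At 8 weeks 5 of 6 HFD mice were below every CD mouse. Gstt2 changed by -1.44 (standard error 0.26, adjusted p = 8.00e-05) at 8 weeks, -1.06 (standard error 0.26, adjusted p = 0.00101) at 20 weeks and -0.55 (adjusted p = 0.0691) at 34 weeks. Gstt1 was called at 8 weeks alone, at -0.71 (standard error 0.22, adjusted p = 0.00974). At 34 against 8 weeks all 3 tested theta genes were called lower in CD mice (median -0.78), and none was called in HFD mice (median 0.08).

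Of the 6 tested mu transferases 3 were higher in HFD mice at 8 weeks, and all 6 were lower at 34 weeks. The mu genes form a cluster on chromosome 3 (107895854 to 108045179), in which all 7 coding genes are Gstm genes, and conjugate a wide range of electrophiles. At 8 weeks Gstm1, Gstm4 and Gstm6 were called higher (29.8% of all genes tested), and the other 3, with Gstm2 at 0.31, Gstm5 at -0.12 and Gstm7 at -0.04, were not called. At 20 weeks 2 were called, both lower (18.7% of all genes tested), and at 34 weeks all 6 were lower (15.7%). With the macrophage covariate the 34 week calls of Gstm4, Gstm5 and Gstm6 remained and those of Gstm1, Gstm2 and Gstm7 were lost, at -0.52 (adjusted p = 0.127), -0.17 (adjusted p = 0.573) and -0.41 (adjusted p = 0.082). Gstm1 was at 205, 292 and 348 at 8 weeks, 260.2, 292 and 320.3 at 20 weeks, and 181, 399.9 and 711 at 34 weeks in CD mice. In HFD mice it was at 431, 574 and 791 at 8 weeks, 220.2, 259.6 and 373 at 20 weeks, and 190.4, 237 and 301 at 34 weeks. The lowest HFD mouse at 8 weeks was above the highest CD mouse, whereas at 34 weeks 7 of 8 CD mice were above every HFD mouse and CD mouse 5 was the lowest of all. Its fold change went from 1.01 (standard error 0.22, adjusted p = 0.000475) at 8 weeks through -0.13 at 20 weeks to -0.76 (standard error 0.20, adjusted p = 0.00351) at 34 weeks.

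Gstm4 was at 20.9, 26.7 and 32.7 at 8 weeks, 22.0, 23.7 and 27.0 at 20 weeks, and 19.9, 42.5 and 57.3 at 34 weeks in CD mice. HFD mice had Gstm4 at 36.8, 38.2 and 44.8 at 8 weeks, 17.4, 20.8 and 26.9 at 20 weeks, and 11.9, 21.3 and 25.2 at 34 weeks. It was higher in 6 of 6 HFD mice at 8 weeks, without overlap, and at 34 weeks every CD mouse but mouse 5 was above every HFD mouse. The corresponding changes were 0.59 (standard error 0.17, adjusted p = 0.00569) and -1.02 (standard error 0.16, adjusted p = 2.57e-05). Gstm6, the least expressed of the tested mu genes per kilobase, was at 3.53, 4.44 and 6.08 at 8 weeks, 4.41, 5.44 and 6.79 at 20 weeks, and 2.396, 10.5 and 15.9 at 34 weeks in CD and 6.92, 7.75 and 10.5 at 8 weeks, 2.81, 3.91 and 5.87 at 20 weeks, and 0.942, 2.08 and 4.32 at 34 weeks in HFD mice. At 8 weeks all HFD mice were above all CD mice, and at 34 weeks 7 of 8 CD mice, all but mouse 5, were above every HFD mouse. Gstm6 changed by 0.72 (standard error 0.25, adjusted p = 0.0184) at 8 weeks and -1.61 (standard error 0.23, adjusted p = 1.06e-05) at 34 weeks. The difference between the 34 and the 8 week fold change was -1.77 (standard error 0.30, adjusted p = 8.17e-05) for Gstm1, -1.62 (standard error 0.23, adjusted p = 2.17e-05) for Gstm4 and -2.34 (standard error 0.34, adjusted p = 2.35e-05) for Gstm6. It was called for all 6 tested mu genes, with Gstm2 at -0.90, Gstm5 at -0.74 and Gstm7 at -0.76. With the macrophage covariate these 3 larger differences were -1.76 (adjusted p = 2.94e-05), -1.61 (adjusted p = 5.35e-06) and -2.33 (adjusted p = 6.84e-06). The diets differed in that covariate by similar amounts at 8 and 34 weeks, so it could move these differences little. Gstm1 shares 18.9% of its 50-base windows with other genes, mainly Gstm2-ps1.

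**Figure D4:**
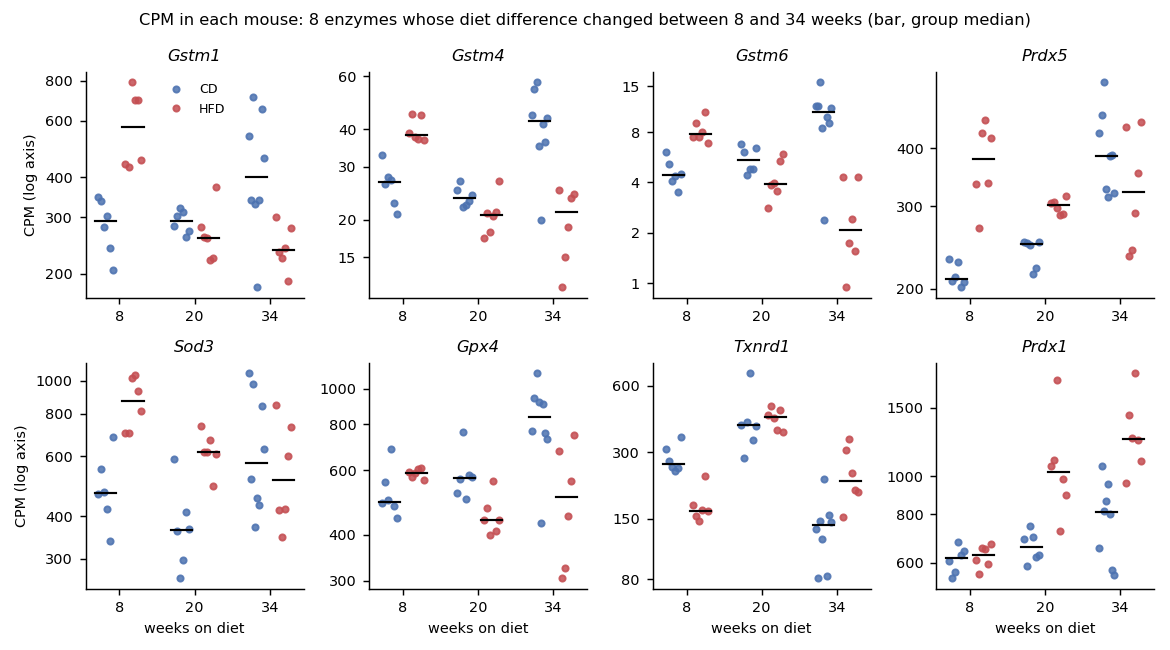
CPM of each mouse (log axis) against weeks on diet for 8 enzyme genes whose diet difference changed between 8 and 34 weeks, with CD in blue, HFD in red and bars at the group medians. Gstm1, Gstm4 and Gstm6 are above the CD mice at 8 weeks and below all CD mice but mouse 5 at 34 weeks, and Txnrd1 is below the CD mice at 8 weeks and above the CD mean in 6 of 6 HFD mice at 34 weeks.

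Among the other transferases most calls came at the later times. Gstz1, which also acts in tyrosine breakdown, was at 833, 997 and 1067 CPM with CD and 539.6, 563 and 601 with HFD at 20 weeks, without overlap. Its fold change was 0.05 (not called) at 8 weeks, -0.78 (standard error 0.18, adjusted p = 0.000316) at 20 weeks and -0.61 (standard error 0.16, adjusted p = 0.00373) at 34 weeks. Gstp1 was called lower, at -0.62 and -0.76 at 20 and 34 weeks, while its neighbour Gstp2 stayed uncalled. The pair share 33.7% (Gstp1) and 54.3% (Gstp2) of their 50-base windows, mostly with each other. Gstk1, the mitochondrial and peroxisomal kappa enzyme, was called at 34 weeks, at -0.53. Gsto1 was called at 8 weeks, at 0.36, and its later values of 0.15 and 0.17 were not called and were -0.07 and 0.08 with TMM factors.

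The microsomal transferase Mgst1, a membrane enzyme that also reduces lipid peroxides, was lower at every time. Mgst1 was at 944, 1333 and 1409 at 8 weeks, 838, 1330.1 and 1586 at 20 weeks, and 693, 829.7 and 1151 at 34 weeks in CD mice. HFD mice showed 703, 809 and 1034 at 8 weeks, 511, 527 and 809 at 20 weeks, and 373, 535 and 820.4 at 34 weeks. The groups were apart at 20 weeks, and 5 of 6 and 4 of 6 HFD mice were below every CD mouse at 8 and 34 weeks. Mgst1 changed by -0.57 (standard error 0.18, adjusted p = 0.00909) at 8 weeks, -1.09 (standard error 0.18, adjusted p = 4.45e-06) at 20 weeks and -0.65 (standard error 0.16, adjusted p = 0.00232) at 34 weeks, and the macrophage covariate left only the 20 week call, at -0.70 (adjusted p = 0.0132). Mgst2 was called lower at 20 weeks (-0.79) and Mgst3 at 34 weeks (-0.48).

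Of the 6 tested peroxiredoxins 3 were called higher and 0 lower at 8 weeks, 3 and 1 at 20 weeks, and 2 and 2 at 34 weeks, beside 29.8% and 15.1%, 38.3% and 18.7%, and 27.5% and 15.7% of all genes tested. Prdx1, Prdx5 and Txnrd1 fell outside the rule for genes given in full and were chosen after their values were seen. Prdx1, an abundant cytosolic enzyme and known Nrf2 target, was at 547, 617 and 678 at 8 weeks, 587, 658 and 746 at 20 weeks, and 557, 807 and 1062 at 34 weeks in CD mice. In HFD mice Prdx1 held 563, 629 and 671 at 8 weeks, 723, 1025 and 1769 at 20 weeks, and 961, 1247 and 1842 at 34 weeks. The groups coincided at 8 weeks, and 5 of 6 HFD mice exceeded every CD mouse at 20 and at 34 weeks. Its change was 0.03 at 8 weeks, 0.67 (standard error 0.16, adjusted p = 0.000584) at 20 weeks and 0.73 (standard error 0.15, adjusted p = 0.000312) at 34 weeks. With the macrophage covariate the later values were 0.43 (adjusted p = 0.108) and 0.58 (adjusted p = 0.0212).

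Prdx5, a mitochondrial and peroxisomal enzyme, was at 201, 209.7 and 231 at 8 weeks, 214, 249.5 and 252 at 20 weeks, and 315, 385 and 554 at 34 weeks in CD and 269, 378 and 459.7 at 8 weeks, 288, 302 and 316 at 20 weeks, and 235, 322 and 455 at 34 weeks in HFD mice. HFD mice were all above CD mice at 8 and 20 weeks and mixed with them at 34 weeks. Prdx5 changed by 0.78 (standard error 0.14, adjusted p = 7.59e-05) at 8 weeks, 0.33 (standard error 0.14, adjusted p = 0.0489) at 20 weeks and -0.27 at 34 weeks. The 20 week call was lost with TMM factors (0.11, adjusted p = 0.52) and when any 1 of 26 mice was left out. At 8 weeks Prdx4 was at 19.2, 19.5 and 21.5 CPM with CD and 23.4, 29.1 and 34.8 with HFD. At 20 weeks it was at 17.4, 19.9 and 23.6 CPM with CD and 31.1, 34.3 and 37.2 with HFD, and at neither time did the diets overlap. Its fold change was 0.55 (standard error 0.13, adjusted p = 0.00131), 0.74 (standard error 0.13, adjusted p = 1.69e-05) and 0.47 (standard error 0.12, adjusted p = 0.00285) at the 3 times, and 0.31 (adjusted p = 0.0476), 0.36 (adjusted p = 0.0587) and 0.23 (adjusted p = 0.22) with the macrophage covariate. Prdx3, the mitochondrial peroxiredoxin, went the other way, at -0.57 and -0.48 at 20 and 34 weeks, both called. Prdx6 was called lower at 34 weeks (-0.57) and Prdx2 higher at 8 weeks (0.25).

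Of the thioredoxin reductases, the cytosolic Txnrd1 reversed. Txnrd1 was at 247, 266 and 353 at 8 weeks, 282, 397 and 685 at 20 weeks, and 80.9, 140.2 and 227 at 34 weeks in CD mice. The HFD mice had 147, 163 and 234 at 8 weeks, 372, 435 and 488 at 20 weeks, and 153, 222 and 344 at 34 weeks. Every HFD mouse was below every CD mouse at 8 weeks, and 3 of 6 were above every CD mouse at 34 weeks. The fold change was -0.71 (standard error 0.20, adjusted p = 0.00463) at 8 weeks, 0.08 at 20 weeks and 0.83 (standard error 0.19, adjusted p = 0.000876) at 34 weeks. The 34 week fold change exceeded the 8 week one by 1.54 (standard error 0.27, adjusted p = 0.000133), and by 1.54 (adjusted p = 7.04e-05) with the macrophage covariate. That covariate could move this difference little, since the diets differed in it by similar amounts at 8 and 34 weeks. Within CD mice Txnrd1 was -1.10 (standard error 0.19, adjusted p = 8.03e-06) at 34 against 8 weeks, and within HFD mice 0.44 (adjusted p = 0.0614). The mitochondrial Txnrd2 was called at 8 weeks (0.25) and Txnrd3 at 20 and 34 weeks (-0.45 and -0.41).

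The intracellular superoxide dismutases were lower in HFD mice at each time, and the extracellular one was higher at 8 and 20 weeks. Sod2, the mitochondrial manganese enzyme, was at 443, 454 and 658 at 8 weeks, 583, 623 and 912 at 20 weeks, and 257, 311 and 488 at 34 weeks in CD mice. HFD mice gave 289, 336 and 461 at 8 weeks, 290.0, 340.1 and 367 at 20 weeks, and 177, 217 and 291 at 34 weeks. No HFD mouse reached a CD mouse at 20 weeks, and 5 of 6 were below every CD mouse at 8 and at 34 weeks. Its change was -0.48 (standard error 0.15, adjusted p = 0.0077) at 8 weeks, -1.004 (standard error 0.15, adjusted p = 9.58e-07) at 20 weeks and -0.55 (standard error 0.14, adjusted p = 0.0017) at 34 weeks. All 3 calls remained with the macrophage covariate, at -0.47 (adjusted p = 0.028), -0.98 (adjusted p = 0.000497) and -0.54 (adjusted p = 0.0268). Of the Sod2 transcript windows 21.0% occur in other genes.

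Sod1, the copper and zinc enzyme of the cytosol, was at 495, 542 and 613 at 8 weeks, 507, 698 and 879 at 20 weeks, and 408, 587 and 885 at 34 weeks in CD and 356, 399 and 493 at 8 weeks, 335, 342 and 476 at 20 weeks, and 273, 447 and 500.2 at 34 weeks in HFD mice. The diets were apart at 8 and 20 weeks and overlapped at 34 weeks. Sod1 changed by -0.40 (standard error 0.16, adjusted p = 0.0422) at 8 weeks, -0.88 (standard error 0.16, adjusted p = 2.85e-05) at 20 weeks and -0.57 (standard error 0.15, adjusted p = 0.00325) at 34 weeks. The 8 week call was lost when any 1 of 8 mice was left out (CD mice 2 to 5 or HFD mice 3 to 6, with adjusted p up to 0.099), and with the macrophage covariate the values were -0.16 (adjusted p = 0.472), -0.49 (adjusted p = 0.0529) and -0.32 (adjusted p = 0.184). Sod3, the secreted enzyme, was at 338, 467 and 684 at 8 weeks, 263, 364 and 587 at 20 weeks, and 371, 573 and 1053 at 34 weeks in CD mice. In HFD mice Sod3 held 702, 874 and 1037 at 8 weeks, 489.5, 618 and 738 at 20 weeks, and 347, 509 and 848 at 34 weeks. All HFD mice were above all CD mice at 8 weeks, and the groups mixed at 34 weeks. Sod3 changed by 0.85 (standard error 0.23, adjusted p = 0.00404) at 8 weeks, 0.75 (standard error 0.23, adjusted p = 0.00698) at 20 weeks and -0.21 (adjusted p = 0.445) at 34 weeks, and the 34 week minus the 8 week fold change was -1.06 (standard error 0.32, adjusted p = 0.0126). With the macrophage covariate the 20 week value of Sod3 was 0.66 (adjusted p = 0.11).

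Catalase, the peroxisomal enzyme that splits hydrogen peroxide, was at 1159.9, 1299 and 1669.5 at 8 weeks, 1149, 1618 and 2681 at 20 weeks, and 708, 993 and 1212 at 34 weeks in CD mice. The HFD mice held 1012, 1185 and 1259.7 at 8 weeks, 906, 1036 and 1387 at 20 weeks, and 552, 925 and 1057 at 34 weeks. Only at 20 weeks were most HFD mice (5 of 6) below every CD mouse. The fold change was -0.18 at 8 weeks, -0.63 (standard error 0.16, adjusted p = 0.0013) at 20 weeks and -0.23 at 34 weeks, and the 20 week value was -0.29 (adjusted p = 0.284) with the macrophage covariate.

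The diet difference itself changed between 8 and 34 weeks in 19 of the 37 genes, where 28.8% of all genes tested were called, 13.0% with a more positive and 15.9% with a more negative difference. It was more negative at 34 weeks in 15 genes, namely the 6 mu genes, Gpx4, Gpx7, Gpx8, Prdx5, Prdx6, Gstp1, Gstz1, Sod3 and Txnrd2. It was more positive in Txnrd1 and in 3 others, at 1.04 (standard error 0.28, adjusted p = 0.00657) for Gstt3, 0.70 (standard error 0.22, adjusted p = 0.0144) for Prdx1 and 0.59 (standard error 0.22, adjusted p = 0.0452) for Gpx1, of which Gpx1 lost its call with TMM factors (0.60, adjusted p = 0.0531). Between 8 and 20 weeks 2 genes were called (4.49% of all genes tested), Gstm1 and Gstz1, both more negative (1.67%), and between 20 and 34 weeks 5 (10.5%), Gpx7, Prdx5, Sod3, Gstm4 and Gstm6, all more negative (6.31%). Without CD mouse 5 at 34 weeks each of these last counts was 7.

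**Figure D5:**
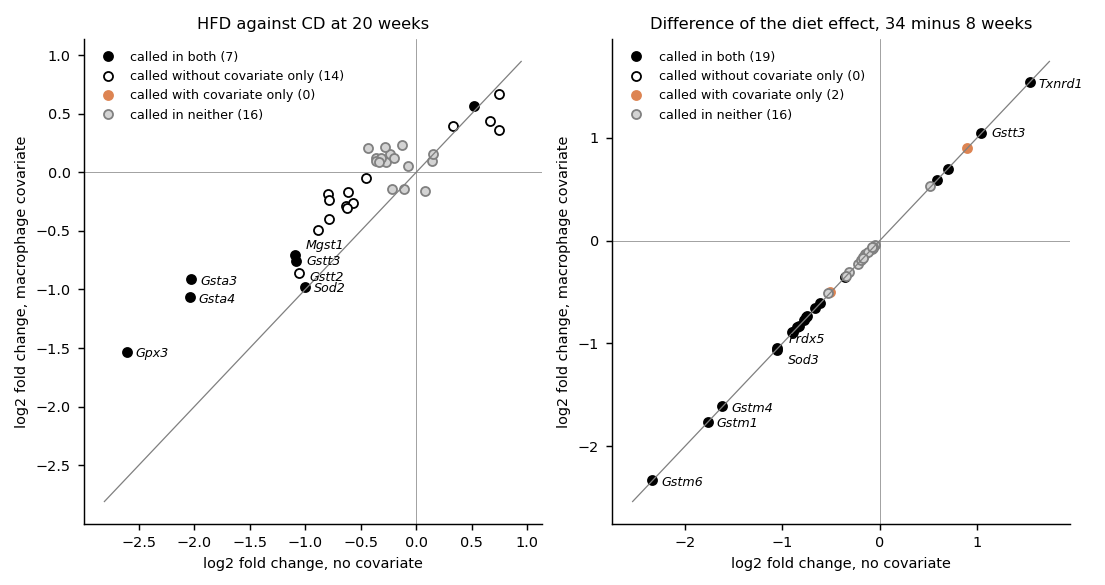
Log2 fold changes of the 37 tested enzyme genes with (y axis) and without (x axis) the mean log2(CPM + 1) of the macrophage markers as a covariate, for HFD against CD at 20 weeks (left) and for the difference of the diet effect between 34 and 8 weeks (right), with the line of equal values. At 20 weeks 7 of 21 calls remain. On the right all 19 calls remain, but there the covariate nearly cancels, since the diets differed in it by similar amounts at both times.

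Beside these changes 12 of 17 tested macrophage markers were called higher with HFD at 8 weeks (29.8% of all genes tested), 14 at 20 weeks (38.3%) and 16 at 34 weeks (27.5%), with 1 lower at 20 weeks. Of 12 adipocyte markers 2 were called higher and 2 lower at 8 weeks, 1 and 7 at 20 weeks (18.7% of all genes lower) and 1 and 8 at 34 weeks (15.7%), and the list's medians were -0.21, -0.61 and -0.56. Markers of other cells of the tissue were also higher in HFD mice, with 10, 8 and 7 of 10 endothelial markers and 8, 9 and 6 of 10 tested markers of fat progenitors and fibroblasts called higher at 8, 20 and 34 weeks, against the same shares of all genes, and their part in the enzyme changes was not tested. With the mean of the macrophage markers in the fit, 14 of the 21 enzyme calls at 8 weeks, 7 of 21 at 20 weeks and 10 of 24 at 34 weeks remained, all in the same direction. At 8 weeks Gpx4, Gstm2 and Gstz1 were called with the covariate alone, all higher, which made 17 in all. In that fit 34.0%, 23.7% and 10.3% of all genes tested were called. The 7 that remained at 20 weeks were Gpx3, Gsta3, Gsta4, Gstt3, Mgst1 and Sod2, which were lower, and Gpx7, which was higher. The 10 at 34 weeks were Gpx3, Gpx8, Gsta3, Gstm4, Gstm5, Gstm6, Gstp1, Sod2, Prdx1 and Txnrd1, of which the last 2 were higher. All 19 calls of the 34 against 8 week difference remained and Gstk1 and Gstt2 were added, which made 21 (35.5% of all genes called). The covariate averaged 4.74 in CD and 6.13 in HFD mice at 8 weeks, and 6.94 and 8.38 at 34 weeks. The diets thus differed in it by similar amounts, so it nearly cancels from this contrast. That these calls remained says little about macrophage content. The same fit called 1 enzyme for the change from 8 to 20 weeks (4.07% of all genes), and 3 and 6 within HFD mice at 20 and 34 against 8 weeks (5.87% and 15.3%). Because the covariate moves with diet and age, its part in the diet differences cannot be told apart from theirs.

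Some of the same enzymes differed between ages in CD mice. At 34 against 8 weeks 13 of the 37 genes were higher and 8 lower in CD mice, where 64.7% of all genes tested were called (40.1% higher and 24.6% lower). With TMM factors 8 of the 37 were higher and 10 lower, beside 3267 higher and 3294 lower of all 10343 genes. Gpx3 had the largest change of the 37, -1.89 (standard error 0.37, adjusted p = 4.42e-05), and its median in CD mice at 34 weeks (474 CPM) was close to that of HFD mice at 8 weeks (504 CPM). Of the 6 tested peroxiredoxins 5 were called higher at 34 than at 8 weeks in CD mice, with Prdx5 at 0.87, Prdx4 at 0.80 and Prdx2 at 0.64. All 3 theta genes were lower, with Gstt3 at -0.96. In HFD mice 4 were higher and 15 lower at 34 against 8 weeks (52.5% of all genes tested, 31.7% higher and 20.8% lower), including all 6 mu genes. Prdx1 rose by 1.04 (standard error 0.16, adjusted p = 5.38e-06) and Gpx3 changed by -2.04 (standard error 0.39, adjusted p = 7.36e-05) in HFD mice. At 20 against 8 weeks limma called 0 of the 37 in CD mice (3.58% of all genes tested), with 5 at an unadjusted p under 0.05. There edgeR called 0 (388 of all 10343 genes) and DESeq2 1 (590). In HFD mice limma called 14 (36.5%), 2 higher (21.2%) and 12 lower (15.3%). Each diet's comparisons with 8 weeks share the 8 week mice.

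Of the genes that feed these enzymes, 122 of 133 listed symbols were found in the table. Of all genes tested 29.8% were called higher and 15.1% lower at 8 weeks, 38.3% and 18.7% at 20 weeks, and 27.5% and 15.7% at 34 weeks, and each list's counts below stand against these shares. In the list for glutathione synthesis, recycling and breakdown 2 genes were higher and 5 lower of 21 tested at 8 weeks, 3 and 10 at 20 weeks, and 5 and 6 at 34 weeks. Gclc, the catalytic subunit of the rate-limiting ligase of glutathione synthesis, was at 102, 122 and 152 at 8 weeks, 93.2, 115 and 169 at 20 weeks, and 21.8, 46.1 and 49.0 at 34 weeks in CD and 51.2, 69.7 and 132 at 8 weeks, 45.3, 64.4 and 79.1 at 20 weeks, and 27.2, 32.6 and 58.1 at 34 weeks in HFD mice. Its change was -0.70 (adjusted p = 0.0102) at 8 weeks, -0.95 (adjusted p = 0.000424) at 20 weeks and -0.07 at 34 weeks, and within CD mice it was -1.62 (adjusted p = 8.32e-08) at 34 against 8 weeks. The modifier subunit Gclm was called at 8 and 20 weeks (-0.69 and -0.37), and so was Gsr, which recycles oxidized glutathione (-0.79 and -0.50). Gss, which completes glutathione, was not called at any time, with 0.18, 0.23 and 0.14. Ggct and Oplah of glutathione breakdown were lower at 20 weeks (-1.20 and -0.72), whereas the surface peptidase Anpep was higher (4.72, and 2.13 with the macrophage covariate).

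Among Nrf2 regulators and other Nrf2 targets 3 genes were higher and 7 lower of 23 tested at 8 weeks, 9 and 3 at 20 weeks, and 9 called at 34 weeks, all higher. The 9 higher of 23 at 20 weeks are close to the 38.3% of all genes called higher then. Nfe2l2 itself was -0.51 (adjusted p = 0.0259) at 8 weeks, -0.13 at 20 weeks and 0.53 (adjusted p = 0.0135) at 34 weeks. Its cytosolic repressor Keap1 had 0.12, 0.22 and -0.18, called at 20 weeks. Hmox1, the haem oxygenase, was called lower at 8 weeks (-1.36) and was 0.69 at 34 weeks, not called. Nqo1 was at 0.03, 0.27 and 0.21 and was not called. At 20 weeks Ephx1, an epoxide hydrolase, and Akr1b8, an aldo-keto reductase, were higher (2.73 and 2.33), and Bach1, a repressor of antioxidant genes, and Aox1 were lower (-1.34 and -1.01).

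In the thioredoxin list 7 genes were higher and 1 lower of 20 tested at 8 weeks, 5 and 4 at 20 weeks, and 2 and 6 at 34 weeks. The 7 higher of 20 at 8 weeks and the 4 lower at 20 weeks are close to the 29.8% and 18.7% of all genes. Srxn1, the sulfiredoxin that restores overoxidized peroxiredoxins, was at 364, 686 and 829.9 at 8 weeks, 318, 406 and 616 at 20 weeks, and 43.7, 85.4 and 126 at 34 weeks in CD and 123, 213 and 493 at 8 weeks, 202, 274 and 337 at 20 weeks, and 99.96, 154 and 185 at 34 weeks in HFD mice. It changed by -1.39 (adjusted p = 9.77e-05) at 8 weeks, -0.61 (adjusted p = 0.0436) at 20 weeks and 0.85 (adjusted p = 0.0056) at 34 weeks. Srxn1, Nfe2l2 and Txnrd1 were thus each called lower at 8 and higher at 34 weeks, as were 1.82% of all genes tested. From 8 to 34 weeks the Srxn1 median fell in both diets, from 686 to 85.4 CPM with CD and from 213 to 154 with HFD. Txn1 was not called (-0.24, 0.00 and 0.14), and Txnip, which binds thioredoxin, was called at 34 weeks (-0.62). Nxn, Sesn1 and Sesn3 were higher at 20 weeks (1.33, 0.62 and 0.71). For NADPH supply 2 were higher and 1 lower of 15 at 8 weeks, 4 and 5 at 20 weeks, and 1 and 4 at 34 weeks, beside 29.8% and 15.1%, 38.3% and 18.7%, and 27.5% and 15.7% of all genes. G6pdx, the entry enzyme of the pentose phosphate pathway, was higher at 8 and 20 weeks (0.57 and 0.60), and Mthfd2 was higher while Tkt and Aldh1l1 were lower at 20 weeks (0.67, -1.07 and -1.11).

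The metallothioneins Mt1 and Mt2, which bind zinc and copper, were lower at every time. Mt1 had -1.15, -1.29 and -0.55 and Mt2 -1.37, -1.58 and -0.75 at the 3 times, all called, and the values were -1.29 and -1.39 at 20 weeks with the macrophage covariate. In their list of 8 tested genes 2 were higher and 2 lower at 8 weeks, 1 and 3 at 20 weeks, and 1 and 5 at 34 weeks, where 15.7% of all genes were lower at 34 weeks. At 20 weeks Atp7a was higher (0.81) and Park7 lower (-0.50). Of 10 tested genes of oxidant sources 6 were higher at each time, and 3, 3 and 1 were lower at 8, 20 and 34 weeks. Cybb, the catalytic subunit of the phagocyte NADPH oxidase, was at 8.89, 15.2 and 53.1 at 8 weeks, 14.6, 38.9 and 195 at 20 weeks, and 16.1, 96.5 and 203 at 34 weeks in CD and 41.6, 76.4 and 145 at 8 weeks, 272, 468 and 618 at 20 weeks, and 165, 301 and 640.0 at 34 weeks in HFD mice. It changed by 2.02 (adjusted p = 0.00244), 3.28 (adjusted p = 3.68e-06) and 2.21 (adjusted p = 0.000694), and by 0.48, 0.83 and 0.62 with the macrophage covariate. Cyba, Ncf1 and Ncf4 of the same oxidase had 3.61, 3.02 and 2.95 at 20 weeks. Of 21 listed genes of selenoproteins and their synthesis 11, among them Selenop, Selenof and Selenok, were not matched by symbol and not analysed here, so the list holds mostly genes of synthesis. The 9 tested had 1 higher and 3 lower at 8 weeks, 1 and 1 at 20 weeks, and 2 called at 34 weeks, both higher. At 20 weeks Pstk was higher (0.34) and Sephs2, which makes selenophosphate, lower (-1.15).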

How the data were processed

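Adipocyte RNA (TruSeq stranded mRNA) was sequenced, and 114 library records were merged by the authors into 38 mice, 3 technical replicates each. Reads were aligned by the authors with STAR to mm10 and counted over exons with featureCounts (Subread 1.5.1). The deposited values are CPM, each column summing to 1000000, so TMM scaling named in the methods is not visible in them. Genes without an Entrez identifier were dropped by the authors. Every value was a whole number of reads within 0.001, which gave 9275711 to 15480388 reads per mouse (median 12522298). Depth limits low genes, and counting error alone does not include the spread between mice.

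The members and gene lists were chosen with earlier results of these data known. Genes with a mean log2(CPM + 1) above 2.0 across all mice entered one limma 3.58.1 trend fit on log2(CPM + 1) over 6 groups (R 4.3.3, Benjamini-Hochberg over 10343 genes, threshold 0.05). Tested members called with a log2 fold change of at least 1 either way in a diet comparison, with Sod1, Sod2, Sod3, Cat, Gpx1, Gpx3 and Gpx4, are given in full. Pathway genes are the 4 largest changes called at 20 weeks per list, plus 13 set genes. Alternatives were other pseudocounts, filters and scalings, edgeR 4.0.16 and DESeq2 1.42.0 on recovered reads, each time alone, array weights, the macrophage covariate, a block for mouse number and leaving out each mouse. Mouse numbers did not pair the samples (median correlation of same-numbered deviations -0.068 over 90 pairs). On simulated data for HFD against CD at 20 weeks with 10343 genes, 26.9% of 1.5-fold, 95.5% of 2-fold and 100% of 4-fold changes were recovered. Only 67, 67 and 66 genes were changed by these folds, every gene had the same setting for spread, and no other groups differed. The real data differ in all of these, so the rates do not give the power of the reported tests. Antisense and overlapping genes and near-identical copies may share reads. Levels between genes were compared per kilobase of GENCODE vM21 exon.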

Additional observations from a re-analysis of the deposited data

Results flagged for a closer look

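In groups of 6 or 8 mice a lone highest or lowest mouse was found in 8 of 108 groups of the genes given in full, where chance gives about 1 in 20. Cat was lowest in HFD mouse 5 at 8 weeks, at 1012 CPM, and the same mouse had the highest Txnrd1 of its group, at 234 CPM. CD mouse 5 at 34 weeks was lowest of its group in Gpx4 (432 CPM), Gstm4 (19.9 CPM) and Gstm6 (2.396 CPM), and it also held the highest macrophage marker level of that group. Gpx4 was highest in CD mouse 3 at 20 weeks (764 CPM), Sod1 in HFD mouse 4 at 20 weeks (476 CPM) and Sod2 in CD mouse 6 at 8 weeks (658 CPM).

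The diet difference itself changed between times in some of these genes, most of which were chosen for the size of their diet change, and Prdx1, Prdx5 and Txnrd1 after their values were seen, so their number is not a result. Between 8 and 34 weeks it changed by 0.59 for Gpx1, -0.90 for Gpx4, -1.06 for Sod3, -1.77 for Gstm1, -1.62 for Gstm4, -2.34 for Gstm6, 1.04 for Gstt3, 0.70 for Prdx1, -1.05 for Prdx5 and 1.54 for Txnrd1 on the log2(CPM + 1) scale. Between 8 and 20 weeks it changed by -1.14 for Gstm1. Between 20 and 34 weeks it changed by -0.96 for Sod3, -0.82 for Gstm4, -1.28 for Gstm6 and -0.59 for Prdx5.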

How the results depend on the processing

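Of the values of single named genes under alternatives other than leaving out a mouse, 1889 kept direction and side of the threshold, 76 gained a call, 66 lost one and 3 reversed. With the macrophage covariate 7 enzymes were called at 20 weeks and 10 at 34 weeks, 1 in the change of the diet difference from 8 to 20 weeks, and 3 and 6 within HFD mice at 20 and 34 against 8 weeks. In that fit 23.7%, 10.3%, 4.07%, 5.87% and 15.3% of all genes tested were called, in the same order. The family medians at 20 weeks were then -0.17 for the cytosolic transferases, 0.12 for Gstk1, -0.40 for Mgst, -0.49 for Sod and -0.29 for Cat, and -0.25 for Gstk1 at 34 weeks. Pathway genes called were 25 at 20 weeks and 9 at 34 weeks with this covariate, and 27 at 34 weeks with each time fitted alone. Of all 10343 genes 2447, 1064 and 2457 were called there. Reversed values, all with this covariate, were 0.90 for Gsta3 and 0.91 for Gsta4 at 34 against 8 weeks in CD mice, and 0.024 for Gsta3 at 20 against 8 weeks in HFD mice. For the change from 8 to 20 weeks, 2 enzymes were called in the reported fit, 1 without a filter, 5 with DESeq2 and 22 with array weights. Over all genes these settings called 464 of 10343, 405 of 21166, and 851 and 4263 of 10343, so the rise with array weights was not particular to these enzymes. For the change from 20 to 34 weeks, 5 were called in the reported fit, 3 without a filter, 2 with TMM factors and 15 with array weights. Over all genes it was 1089 of 10343, 1028 of 21166, and 1252 and 3407 of 10343. Within mice at 20 against 8 weeks, array weights called 4 in CD and 26 in HFD mice, and DESeq2 1 in CD mice. Of all 10343 genes they called 1543, 6392 and 590 in the same order. Leaving out 1 mouse gave 0 to 7, 3 to 7 and 0 to 1 enzymes for these 2 changes and the CD comparison, with 7 in both changes without CD mouse 5 at 34 weeks, and 0 in the first without CD mouse 6 or HFD mouse 4 at 8 weeks or CD mouse 3 or HFD mouse 5 at 20 weeks. Prdx5 at 20 weeks, Gpx1 in the change from 8 to 34 weeks, Sod3 in that from 20 to 34 weeks, and Prdx1 in CD and Gsta3 in HFD mice lost their calls without any 1 of 15 to 30 mice. The cause of these moves was not tested.

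Mouse number as a replicate block called 21 enzymes at 8 weeks, 20 at 20 weeks and 27 at 34 weeks, and 1 in the change from 8 to 20 weeks. Of all 10343 genes this block called 4574, 5905, 4520 and 374 in the same order. Same-numbered mice appear to share only a number, since 30 of their 90 pairs had a correlation over 0.1, beside 195 of 510 pairs with different numbers. At 8 weeks depth and diet cannot be told apart.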
